A study of Mus musculus with 6 samples.

Results

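The iron and heme handling genes are 10 named genes for iron uptake, storage and export, for heme breakdown, and for the iron regulatory proteins. They were taken by name from the 34745 genes of a count table, by a list that uses no values but was drawn up with earlier results of these data known. All 10 were found, and all 10 were among the 12537 genes with enough reads to be tested. Monocytic myeloid-derived suppressor cells (M-MDSCs), immature monocyte-like cells that restrain T cells, were compared by RNAseq between WT and Lyz-mTOR C57BL/6 mice, with 3 libraries per group. Lyz-mTOR mice carry a floxed Mtor gene and a Cre recombinase under the lysozyme promoter, so that the kinase mTOR is deleted in myeloid cells, while other cells keep it, and their M-MDSCs are called mTOR-/-. The labels give sorted cells from bone marrow, and the study's methods describe a bone marrow culture with GM-CSF and IL-6. The labels do not state whether the sequenced cells came from that culture, although the study's discussion calls them induced, and they state neither the age or sex of the mice nor whether a library is 1 animal, so the spread between libraries may be technical in part.

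Iron enters most cells bound to transferrin through the transferrin receptor, is kept in the ferritin shell, and leaves through ferroportin. Macrophages also take iron from the heme of engulfed red blood cells, which heme oxygenase opens. The iron regulatory proteins bind a short RNA hairpin, the iron-responsive element, when iron is scarce. In a 5′ UTR this binding restrains translation, and in the 3′ UTR of Tfrc it protects the mRNA from decay.

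These hairpins are shown because they mark members whose mRNA holds a common form of this element. A search of the sense strand of the GENCODE M21 transcripts took a bulged C, 5 bases, the loop CAGTGN, and 5 bases that pair with the first 5 by Watson-Crick or G-T pairs. It matched 4 of the 10 members, Tfrc, Fth1, Ftl1 and Slc40a1, and 369 of 21951 protein-coding genes (1.68%). A match is a description of the sequence, and a gene without a match only lacks these letters. Such a gene, Slc11a2 among the members, may still carry an element of another form. The search therefore cannot decide which members are under this control. The sequences below are 29 bases long and 5′ to 3′, with the bulged C and the loop in capitals, and positions are on GRCm38, the build also called mm10. The Tfrc hairpins lie in its 3′ UTR on the forward strand, at chr16:32631219-32631247, chr16:32631598-32631626, chr16:32631663-32631691 and chr16:32631710-32631738 in the order printed. The other hairpins lie in 5′ UTRs, of Fth1 on the forward strand at chr19:9982732-9982760, of Ftl1 on the reverse strand at chr7:45459779-45459807, and of Slc40a1 on the reverse strand at chr1:45925465-45925493.
Tfrc, 3′ UTR: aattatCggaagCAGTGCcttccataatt
Tfrc, 3′ UTR: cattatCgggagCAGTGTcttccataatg
Tfrc, 3′ UTR: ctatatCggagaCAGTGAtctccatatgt
Tfrc, 3′ UTR: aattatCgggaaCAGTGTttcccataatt
Fth1, 5′ UTR: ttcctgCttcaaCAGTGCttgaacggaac
Ftl1, 5′ UTR: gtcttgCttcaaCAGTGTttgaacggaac
Slc40a1, 5′ UTR: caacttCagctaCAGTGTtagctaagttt

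In the mTOR-/- M-MDSCs the mRNAs of the ferritin light chain Ftl1 and of heme oxygenase 1, Hmox1, were lower than in WT M-MDSCs, by 43.7% and 43.0%. The other 8 members, among them the uptake receptor Tfrc, the exporter Slc40a1 and both iron regulatory proteins, did not pass the test. Levels are given as normalized CPM, the CPM of edgeR, in which the reads of a gene are scaled to the total reads of its library with TMM factors. Differences are log2 fold changes, mTOR-/- minus WT, with the standard error (SE), estimated by edgeR, whose quasi-likelihood p was adjusted by Benjamini and Hochberg's method over all 12537 tested genes.

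At an adjusted p under 0.05, 2 of the 10 members were lower and 0 were higher, against 1.87% of all tested genes lower and 4.04% changed in either direction. With the study's further threshold of a fold change of 2, 0 of the 10 members were called by edgeR, against 1.69% of all tested genes. DESeq2 also called 0 members at that fold, beside 356 of all genes. At an unadjusted p under 0.05 edgeR gave 2 members and DESeq2 gave 3. The share of all genes at that unadjusted threshold was not taken, so these 2 counts say nothing about the members. The 2 groups did not overlap in normalized CPM for 3 members (Ftl1, Hmox1 and Fth1), or 3 in 10, where 28.4% of all tested genes did not overlap. This share of members is near that of all genes. The median log2 fold change was -0.13 over the members and 0.005 over all tested genes.

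**Figure D1:**
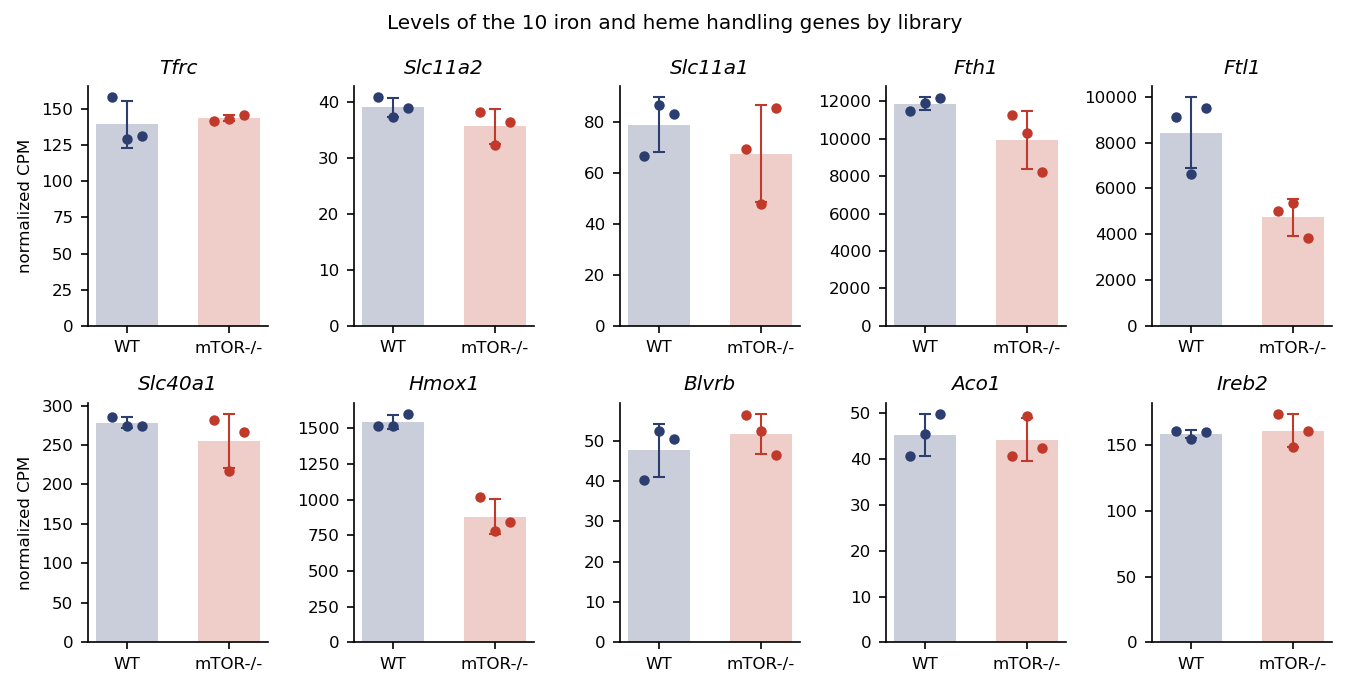
Normalized CPM of each of the 10 genes (vertical axes, linear and starting at 0, with a scale for each gene) in the WT and mTOR-/- libraries. Points are libraries in the order replicates 1, 2 and 3, bars are means and error bars are SD (n = 3 per group). The groups stand apart for Fth1, Ftl1 and Hmox1, with the mTOR-/- libraries lower, and overlap for the other 7 genes.

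The mTOR-/- libraries held 12317507 to 12903191 reads counted on genes and the WT libraries 14066578 to 14768126. Every member had far more than the floor of 3 reads, which was 0.203 to 0.244 CPM and covers counting error only. Log2 CPM correlated across genes, which are not independent replicates, at 0.978 to 0.981 among WT libraries and 0.952 to 0.973 among mTOR-/- libraries, where replicate 3 stood apart. Mtor itself had 883, 983 and 908 reads in mTOR-/- and 980, 875 and 929 reads in WT samples (log2 fold change 0.15), and reads over the whole gene cannot show a deletion of part of it. The study reports a separate check that mTOR was depleted in MDSCs. In bulk RNA, fewer cells of a type and less RNA per cell cannot be told apart. Of 7 monocyte markers, Cd14 and Csf1r were higher and Ly6c2 was lower (adjusted p = 0.0426), and Itgam, which encodes the gated CD11b, stood at 647 to 1028 CPM in all 6 libraries. Ly6g, the neutrophil antigen that this kind of gate leaves out, was at 10.7 to 15.1 CPM in the mTOR-/- and 0.853 to 5.06 CPM in the WT libraries (log2 fold change 2.27, SE 0.49, adjusted p = 0.0365).

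Iron uptake was represented by Tfrc, Slc11a2 and Slc11a1, and 0 of these 3 genes were called (edgeR, also 0 at an unadjusted p under 0.05). Tfrc (ENSMUSG00000022797, chromosome 16, 32608920 to 32632794) encodes the transferrin receptor, which brings transferrin-bound iron into endosomes. It stood at 142, 143 and 146 normalized CPM in mTOR-/- replicates 1, 2 and 3 and at 158, 129 and 131 in the WT replicates. The mTOR-/- libraries lay close together and inside the range of the WT libraries. The log2 fold change was 0.04 (SE 0.10, 95% interval -0.19 to 0.27, adjusted p = 0.848), and without WT replicate 2 or without WT replicate 3 it was -0.01 and -0.00, so it has no stable sign. That interval leaves out a fold change of 2 in either direction.

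Slc11a2 (ENSMUSG00000023030, chromosome 15, 100387898 to 100425072) encodes DMT1, which carries ferrous iron out of the endosome into the cytosol. Its levels were 38.3, 32.3 and 36.5 CPM in mTOR-/- and 40.9, 37.4 and 39.0 CPM in WT libraries. The ranges overlapped only at mTOR-/- replicate 1, which lay just above the lowest WT library. Slc11a2 differed by -0.13 on the log2 scale (SE 0.13, 95% interval -0.41 to 0.15, adjusted p = 0.588).

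Slc11a1 (ENSMUSG00000026177, chromosome 1, 74375195 to 74386062) encodes NRAMP1, which moves metal ions out of the phagosome, and C57BL/6 mice are known to carry a form that does not work. Its mRNA was measured at 69.4, 47.8 and 85.7 CPM in mTOR-/- and 66.7, 86.9 and 83.2 CPM in WT libraries. The mTOR-/- libraries spread widely, with replicate 2 below every other library and replicate 3 level with the WT libraries. The difference was -0.22 on the log2 scale (SE 0.20, 95% interval -0.67 to 0.22, adjusted p = 0.552), the widest interval among the members. It was -0.44 without mTOR-/- replicate 3 and -0.04 without mTOR-/- replicate 2.

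The ferritin chains had the highest levels per length among the members. Fth1, the heavy chain, oxidises iron for storage, and Ftl1, the light chain, helps to form the mineral core. Other genes of the table whose names start with Fth or Ftl took few reads, with 3 to 8 per library on Fth-ps2, 1 to 6 on Ftl2-ps and 0 on the Fthl17 genes. Ferritin copies under other names were not looked for, and the likeness of these sequences to Fth1 and Ftl1 was not measured. How reads that match several copies were assigned is not given in the sources used here.

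Ftl1 (ENSMUSG00000050708, chromosome 7, 45457944 to 45459884) had 61409, 69571 and 50158 reads in mTOR-/- and 128356, 97276 and 133368 reads in WT libraries. Its normalized levels were 5005, 5371 and 3837 CPM in mTOR-/- and 9123, 6645 and 9499 CPM in WT libraries. All mTOR-/- libraries lay below all WT libraries, and WT replicate 2 came nearest to the mTOR-/- range. The means were 4738 ± 801 and 8422 ± 1551 CPM (SD, n = 3 each), a level 1.78-fold higher in WT. For Ftl1 the log2 fold change was -0.83 (SE 0.18, 95% interval -1.24 to -0.42, adjusted p = 0.0370). With 1 library left out it stayed between -0.98 and -0.70, but the adjusted p rose to 0.0858 without mTOR-/- replicate 1, to 0.146 without WT replicate 1 and to 0.174 without WT replicate 3.

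Fth1 (ENSMUSG00000024661, chromosome 19, 9982703 to 9985092) stood at 11242, 10285 and 8240 CPM in mTOR-/- and 11492, 11886 and 12188 CPM in WT libraries. The WT libraries were close together, the groups did not overlap, and mTOR-/- replicate 1 lay just under the lowest WT library. The means were 9922 ± 1534 and 11855 ± 349 CPM (SD, n = 3 each). The log2 fold change of -0.26 (SE 0.15, 95% interval -0.59 to 0.08) did not pass the test, with an unadjusted p of 0.115 and an adjusted p of 0.353 from edgeR. It stayed negative with each library left out in turn, between -0.36 and -0.15.

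The ferritin genes together took 1.62%, 1.58% and 1.22% of all counted reads in mTOR-/- and 2.06%, 1.84% and 2.14% in WT libraries. Their exact 95% binomial intervals were at most 0.0150 percentage points wide, which covers counting error only. Every mTOR-/- library was below every WT library, and replicate 3 was the lowest (means 1.47 ± 0.218% and 2.01 ± 0.156%, n = 3 each). A two-sided exact permutation test gave p = 0.1, the lowest this test can give with 3 libraries against 3. Fth1 and Ftl1 each took a lower share of reads in every mTOR-/- library, so their sum had to be lower too. That p thus adds no evidence beyond the separate genes.

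The balance between the ferritin chains was examined after the values above had been seen. It compares libraries, not the level of one chain with the other, which needs their lengths. There were 2.25, 1.92 and 2.15 Fth1 reads per Ftl1 read in mTOR-/- and 1.26, 1.79 and 1.28 in WT libraries. The groups did not overlap, and WT replicate 2 stood apart from the other WT libraries toward the mTOR-/- range. The mean ratio was 2.10 ± 0.170 in mTOR-/- and 1.44 ± 0.299 in WT M-MDSCs (n = 3 each, two-sided exact permutation p = 0.1, again the lowest attainable). That p follows from the lack of overlap, and the ratio was chosen with the values known, so it adds no evidence. The mTOR-/- mean was 1.46 times the WT mean, 1.37 to 1.65 times with each library left out, and the 1.65 came without WT replicate 2.

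**Figure D2:**
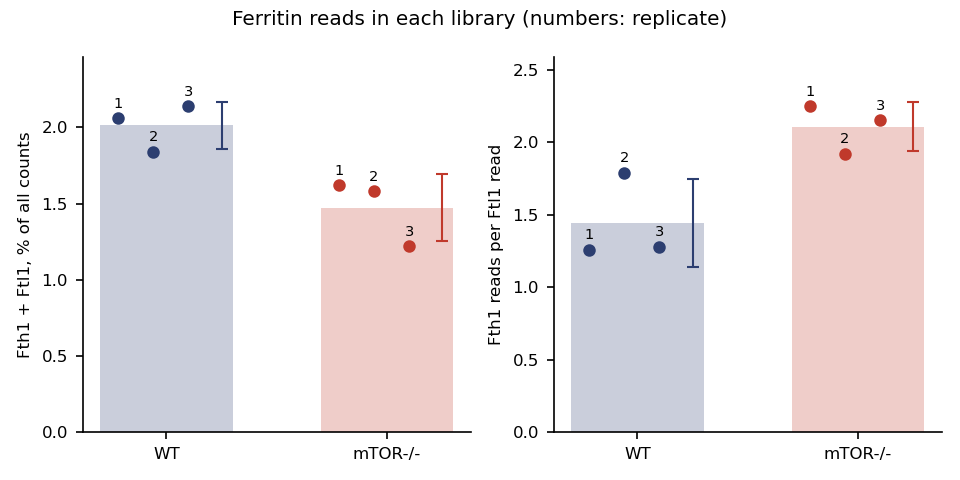
Reads of Fth1 and Ftl1 together as a percent of all counted reads (left) and Fth1 reads per Ftl1 read (right) in the WT and mTOR-/- libraries. Points are libraries numbered by replicate, bars are means and error bars are SD (n = 3 per group). The share was 1.22 to 1.62% in mTOR-/- and 1.84 to 2.14% in WT libraries, and the ratio 1.92 to 2.25 and 1.26 to 1.79.

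Iron export was represented by Slc40a1 (ENSMUSG00000025993, chromosome 1, 45908068 to 45926523), which encodes ferroportin, the iron exporter that hepcidin removes from the membrane. Its levels were 282, 217 and 267 CPM in mTOR-/- and 286, 274 and 274 CPM in WT libraries. Replicate 2 of mTOR-/- was the lowest, and replicate 1 lay within the WT range, so the groups overlapped. The log2 fold change was -0.12 (SE 0.11, 95% interval -0.37 to 0.12, adjusted p = 0.552).

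Heme breakdown gave the clearest difference among the members. Hmox1 (ENSMUSG00000005413, chromosome 8, 75093591 to 75100596) encodes the inducible heme oxygenase, which splits heme into iron, carbon monoxide and biliverdin. It stood at 1016, 781 and 841 CPM in mTOR-/- and at 1514, 1517 and 1600 CPM in WT libraries. The WT libraries were nearly level, and the highest mTOR-/- library was well under the lowest of them. The means were 879 ± 122 and 1544 ± 48.7 CPM (SD, n = 3 each), a level 1.76-fold higher in WT. For Hmox1 the log2 fold change was -0.81 (SE 0.12, 95% interval -1.08 to -0.55, adjusted p = 0.00642). It stayed between -0.93 and -0.74 with each library left out, and the call held in all 12 alternative analyses.

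Blvrb (ENSMUSG00000040466, chromosome 7, 27447978 to 27466144) encodes biliverdin reductase B, which also reduces flavins. It was measured at 56.2, 52.3 and 46.3 CPM in mTOR-/- and 40.1, 52.3 and 50.4 CPM in WT libraries. The groups overlapped, with WT replicate 1 the lowest and mTOR-/- replicate 1 the highest. The log2 fold change was 0.12 (SE 0.14, 95% interval -0.20 to 0.43, adjusted p = 0.678), and it was -0.00 without WT replicate 1. The 2 genes of heme breakdown were thus 1 lower and 1 without a call.

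The iron regulatory proteins are IRP1, encoded by Aco1, which serves as a cytosolic aconitase when it holds an iron-sulfur cluster, and IRP2, encoded by Ireb2, which is degraded when iron is plentiful. Aco1 (ENSMUSG00000028405, chromosome 4, 40143081 to 40198338) stood at 40.6, 49.5 and 42.5 CPM in mTOR-/- and 40.7, 45.4 and 49.8 CPM in WT libraries. Ireb2 (ENSMUSG00000032293, chromosome 9, 54863755 to 54912534) stood at 174, 149 and 161 CPM in mTOR-/- and 161, 155 and 160 CPM in WT libraries. For both genes the ranges of the groups lay over each other. The log2 fold change was -0.04 for Aco1 (SE 0.13, 95% interval -0.33 to 0.26, adjusted p = 0.907) and 0.03 for Ireb2 (SE 0.09, 95% interval -0.18 to 0.23, adjusted p = 0.900). Neither sign was stable, since Aco1 gave 0.02 and Ireb2 gave -0.04 without mTOR-/- replicate 1. The regulatory proteins act through RNA binding, which counts of their own mRNA do not measure.

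**Figure D3:**
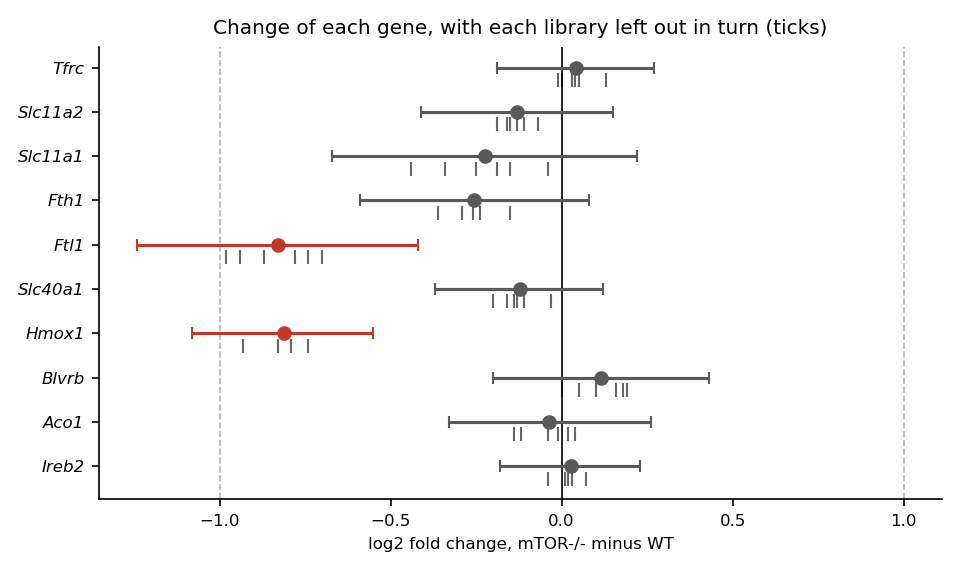
Log2 fold change of each gene, mTOR-/- minus WT (horizontal axis), as points with 95% intervals from the edgeR fit, red where the adjusted p was under 0.05 and grey otherwise. Ticks below each point are the values with each of the 6 libraries left out in turn, and dashed lines mark a fold change of 2. Ftl1 at -0.83 and Hmox1 at -0.81 lie apart from the other 8 genes, which lie between -0.26 and 0.12.

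Among the 4 genes with a matched hairpin, Ftl1 was lower and Tfrc, Fth1 and Slc40a1 did not pass the test. Fth1 and Ftl1, both with a hairpin in the 5′ UTR, had log2 fold changes of -0.26 and -0.83. Hmox1, the other gene that changed, had no match to these letters. Translation, on which the 5′ UTR hairpins act, was not measured.

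Levels of different genes were compared only per length, as normalized CPM per kilobase of a principal GENCODE M21 transcript. In WT M-MDSCs Fth1 was highest, at 12370 to 13119 CPM per kilobase, followed by Ftl1 at 6865 to 9813 and Hmox1 at 965 to 1020. Slc40a1 followed at 81.3 to 84.9 and Blvrb at 39.0 to 50.9, and none of these 5 ranges overlapped its neighbour. Tfrc at 26.4 to 32.3 overlapped both Slc11a1 at 28.8 to 37.5 and Ireb2 at 26.9 to 27.9, which did not overlap each other. The ranges also overlapped for Slc11a2 at 12.4 to 13.5 and Aco1 at 10.6 to 13.0.

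In mTOR-/- M-MDSCs the same 5 genes led, with Fth1 at 8870 to 12101 CPM per kilobase, Ftl1 at 3964 to 5549, Hmox1 at 498 to 648, Slc40a1 at 64.4 to 83.7 and Blvrb at 45.0 to 54.7. The ranges of Tfrc, Slc11a1 and Ireb2 all overlapped, and so did those of Slc11a2 and Aco1. The gene lengths behind the deposited FPKM values differ from these transcripts, and make Ftl1 3.26 times as long as Fth1, where the principal transcripts differ by 1.04 times. With those lengths Fth1, Ftl1 and Hmox1 still led in that order, at means of 13689, 2980 and 558 CPM per kilobase in WT. Ireb2, at 27.4, then lay above Slc40a1, at 25.8, and Blvrb, at 17.2, so the order below Hmox1 depends on the length used. This alternative was added after the data had been seen.

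Other genes of iron and heme handling were taken as 8 lists of 87 genes in all, 68 of them tested and 9 without a read in any library. Of these 68, 4 were lower and 1 was higher at an adjusted p under 0.05, 1 of them past a fold change of 2. An unadjusted p under 0.05 in edgeR was found for 11, and the share of all tested genes at that threshold was not taken. The called share was 7.35%, with 5.88% lower and 1.47% past both thresholds, beside 4.04%, 1.87% and 1.69% of all tested genes. The groups did not overlap for 19 of the 68 (27.9%), near the 28.4% of all tested genes. Their median log2 fold change was 0.01, beside 0.005 over all tested genes.

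Among 8 tested genes of other iron uptake and reduction, 2 were lower and 0 were higher. Slc39a8, which encodes the metal importer ZIP8, had 226, 292 and 287 reads in mTOR-/- and 541, 485 and 599 reads in WT libraries (log2 fold change -0.86, SE 0.15, adjusted p = 0.0167). Lrp1, a large endocytic receptor that takes up heme bound to hemopexin among many ligands, stood at 384, 291 and 372 CPM in mTOR-/- and 519, 525 and 541 CPM in WT libraries (log2 fold change -0.60, SE 0.11, adjusted p = 0.0235). In both genes all mTOR-/- libraries lay below all WT libraries. Without WT replicate 3 the adjusted p rose to 0.0926 for Slc39a8 and 0.113 for Lrp1. Slc39a8 also missed the threshold without mTOR-/- replicate 1 (0.0589) and without WT replicate 1 (0.0720), and Lrp1 without WT replicate 1 (0.0824) and without WT replicate 2 (0.0815). With the replicate number as a block, Lrp1 missed it (0.0550) and Slc39a8 did not (0.0425).

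In heme transport and other heme breakdown, 1 of 8 tested genes was lower and 0 were higher. Slc48a1, or HRG1, which carries heme from the lysosome into the cytosol, stood at 242, 237 and 213 CPM in mTOR-/- and 289, 312 and 318 CPM in WT libraries. The groups did not overlap, and the log2 fold change was -0.41 (SE 0.09, adjusted p = 0.0407). The call was the least steady of those named, since without 1 library the adjusted p rose to 0.0574 (mTOR-/- replicate 2), 0.0779 (mTOR-/- replicate 1), 0.103 (WT replicate 1), 0.135 (WT replicate 2) and 0.191 (WT replicate 3). It was also lost with the replicate number as a block (adjusted p = 0.137).

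Of 2 tested genes of siderophore binding and lactoferrin, Ltf, the iron-binding lactoferrin of neutrophil granules, was lower, with 46, 47 and 76 reads in mTOR-/- and 250, 253 and 271 reads in WT libraries (log2 fold change -2.04, SE 0.23, adjusted p = 0.00214). Of 27 tested genes of mitochondrial iron transport and iron-sulfur assembly, 1 was higher and 0 were lower. That gene was Ciapin1, which works in the assembly of cytosolic iron-sulfur proteins, with 968, 1283 and 1167 reads in mTOR-/- and 699, 717 and 525 reads in WT libraries (log2 fold change 0.97, SE 0.14, adjusted p = 0.00692). Ltf and Ciapin1 separated the groups in every library and kept their calls in all 12 alternative analyses.

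In the remaining lists edgeR called 0 genes, among 9 tested of heme synthesis, 9 of regulators, 3 of chaperones and ferritin turnover, and 2 of other iron export. At an unadjusted p under 0.05 in edgeR these lists held 3, 1, 0 and 0 genes, without a share of all genes taken at that threshold. DESeq2 called 1, 1, 0 and 0 at an adjusted p under 0.05, beside 1066 of the 17309 genes with a read. The 2 genes with the most reads in each list had values as follows. Alas1, the entry enzyme of heme synthesis, had a log2 fold change of 0.26 (adjusted p = 0.219) and Tspo, an outer mitochondrial membrane protein that binds porphyrins, one of -0.30 (adjusted p = 0.236). Hif1a, a subunit of the hypoxia-inducible factor, gave 0.07 (adjusted p = 0.727), and Fbxl5, the iron-sensing ubiquitin ligase subunit that marks IRP2 for decay, gave 0.31 (adjusted p = 0.272). Pcbp1 and Pcbp2, RNA-binding proteins that also deliver iron to ferritin, gave -0.09 and -0.04, and App and the ferroxidase Cp gave 0.01 each.

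**Figure D4:**
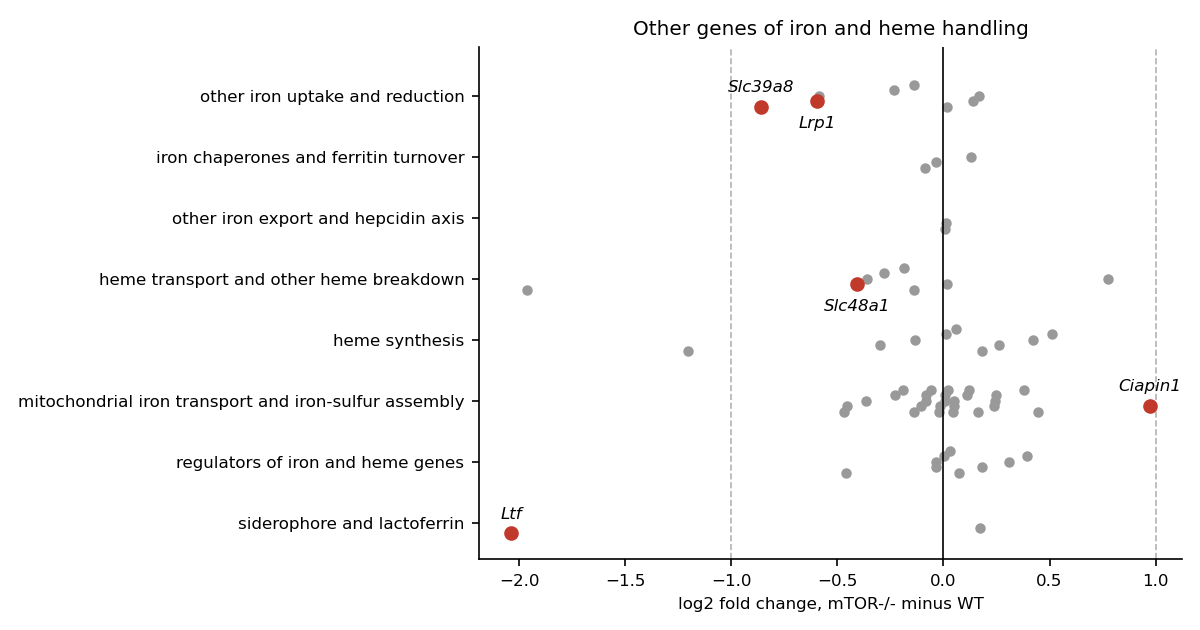
Log2 fold change, mTOR-/- minus WT (horizontal axis), of the 68 tested other genes of iron and heme handling, by list, with each point a gene. Red points with names had an adjusted p under 0.05 in edgeR, grey points did not, and dashed lines mark a fold change of 2. Ltf, Slc39a8, Lrp1 and Slc48a1 lie below 0 and Ciapin1 above it.

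Markers of other cells differed between the groups in the same libraries. Of 7 mast cell and basophil markers, 4 were lower in mTOR-/- (Cpa3, Kit, Gata2 and Mcpt8) and 0 were higher. Fcer1a, Ms4a2 and Prss34 were not called, with log2 fold changes of 0.45, -0.65 and -0.57. The summed level of the 7 was 441 to 516 CPM in mTOR-/- and 1282 to 1366 CPM in WT libraries, most of it from Cpa3, Gata2 and Kit. As for Hmox1 and Ftl1, these ranges did not overlap, and the part of these cells in the lower Hmox1 and Ftl1 was not tested. Of 9 dendritic cell markers, 1 (Ccr7) was higher. The summed level of these markers was 196 to 269 CPM in mTOR-/- and 70.9 to 160 CPM in WT libraries, most of it from Itgax and Ccr7. Flt3 and Clec9a gave log2 fold changes of -0.46 and -0.39, Zbtb46 and Batf3 gave 0.81 and 0.37, and they were not called. The part of dendritic cells was not tested.

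Red blood cell precursors, rich in heme and in Tfrc, left few reads. Of 12 erythroid markers 11 were in the table, and their summed level was 2.55 to 3.82 CPM in mTOR-/- and 7.04 to 12.0 CPM in WT libraries. Hbb-bs, an adult beta globin, had 10, 16 and 3 reads in mTOR-/- and 36, 40 and 55 in WT libraries (adjusted p = 0.105), and Hba-a1 had 0, 0 and 4 against 6, 16 and 21. Both were lower in every mTOR-/- library, and their part in the lower Hmox1 and Ftl1 was not tested.

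Markers of iron-recycling macrophages summed to 570 to 699 CPM in mTOR-/- and 666 to 752 CPM in WT libraries, nearly all of it from Adgre1 and Vcam1, which other myeloid cells also express. The defining markers were at or near 0, with 0 to 6 reads on Cd5l, 0 to 8 on C1qa and 0 on Timd4 in each library. Of the 13 markers 2 were higher in mTOR-/- M-MDSCs and 0 were lower. Clec4f had 86, 75 and 179 reads against 0 in each WT library, and Axl stood at 37.2, 25.3 and 21.4 CPM against 5.69, 9.09 and 13.3.

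Neutrophil markers, which touch Ltf, were mixed. Of 11, S100a8 and Ly6g were higher and Ngp was lower (log2 fold change -0.56, SE 0.12, adjusted p = 0.0343). The summed level of the 11 was 2420 to 2748 CPM in mTOR-/- and 2119 to 2460 CPM in WT libraries. Lymphocyte markers summed to 3.26 to 5.58 CPM in mTOR-/- and 3.62 to 5.47 CPM in WT libraries, with 0 of 2 tested called (edgeR, also 0 at an unadjusted p under 0.05). The part of neutrophils in the lower Ltf was not tested.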

How the data were processed

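RNA of 3 WT and 3 mTOR-/- M-MDSC samples was sequenced. The authors deposited counts of reads per gene, which the study's methods attribute to Bowtie2 on mm10 and HTSeq. The submitters' processing notes instead list HISAT2 2.0.4, StringTie 1.3.0, GRCm38.p4 and mm9, without roles. The annotation release and the strand setting are not given in the sources used here, so reads of overlapping or antisense genes cannot be told apart. FPKM values were also deposited by the authors; from them only the relative gene lengths were read. Their own comparison of the groups (fold changes, p and q values) was not used. Of 36 columns of per-sample values 24 were not used, since they repeat others.

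Counts were analysed in R 4.3.3 with edgeR 4.0.16: filterByExpr (minimum count 10, total 15), TMM, and the quasi-likelihood F test, with a biological coefficient of variation of 19%. The methods were tested on simulated data. DESeq2 1.42.0, RLE and upper-quartile scaling, other filters, a replicate block and each library left out were the 12 alternatives. Positions are from the deposited table. No 2 libraries of a group agreed within sampling noise (chi-square per gene 13.0 to 37.8).

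The members and lists were chosen with earlier results of these data known. Named in the text were all members, and up to 4 called genes of each other list or else the 2 with the most reads. Called and defining markers, Mtor and the genes with names in Fth or Ftl were also named. Any other gene is marked, with the exceptions that follow. Itgam, Adgre1, Vcam1, Timd4, Itgax, Flt3, Clec9a, Zbtb46, Batf3, Fcer1a, Ms4a2 and Prss34 were named after their values were seen. Flvcr1 and Flvcr2 were matched by identifier, and Ahsp was not found. No p was adjusted over the lists alone.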

Additional observations from a re-analysis of the deposited data

How the results depend on the processing

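Under the 12 alternatives Hmox1 kept its call and 0 members passed a fold change of 2. Members called numbered 1 with the replicate number as a block, which left Ftl1 at -0.83 (adjusted p = 0.125), and 1 to 2 with a library left out, where Ftl1 lay between -0.98 and -0.70. Members without overlap numbered 3 to 5 with a library left out, 5 of them without mTOR-/- replicate 1. Fewer libraries overlap less readily for any gene, and the share over all genes was not taken there, so these counts say nothing about the members. In the other iron and heme lists the 1 gene past both thresholds became 3 by DESeq2, 2 without a filter on low counts, 2 with at least 10 counts in every sample, and 1 to 3 with a library left out. Calls at an adjusted p under 0.05 in those lists became 8 by DESeq2, 3 with the block and 2 to 6 with a library left out. Over all genes the 507 calls became 1066 by DESeq2, 279 with the block and 173 to 513 with a library left out, and the 212 past both thresholds became 356 by DESeq2 and 114 to 229 with a library left out. Same-numbered libraries did not deviate together (r of -0.08, -0.03 and -0.06). With 3 libraries per group this cannot decide whether the samples were paired by number. Values near 0 changed sign. App gave -0.00 by DESeq2, -0.01 without a filter, -0.00 with at least 10 counts in every sample, and Cp gave -0.00 without a filter and -0.02 with the block. With a library left out, the ranges were -0.06 to 0.06 for App, -0.35 to 0.21 for Cp, -0.08 to 0.01 for Pcbp2, -0.01 to 0.13 for Tfrc, -0.14 to 0.04 for Aco1, -0.04 to 0.07 for Ireb2 and -0.00 to 0.19 for Blvrb. Among the members and the other iron and heme genes named by rule, no sign but those of App and Cp changed under another scaling, filter, tool or the block. Depth limits the genes with few reads, such as Hba-a1, Cd5l and C1qa.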

Other observations

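The genes below were chosen after their values were seen, for their ties to the members, and edgeR's quasi-likelihood test over all 6 libraries called 0 of them. Bach1, Nfe2l2, Hmox2, Blvra and Ncoa4 were called in none of the 12 alternatives. Bach1, the heme-binding repressor of Hmox1, stood at 98.3, 76.9 and 98.6 CPM in mTOR-/- and 93.0, 89.7 and 85.8 CPM in WT libraries (log2 fold change 0.03, SE 0.12, adjusted p = 0.919). Nfe2l2, which encodes the activator NRF2 of Hmox1 and the ferritin genes, had a log2 fold change of 0.00 (SE 0.10, adjusted p = 0.994). The mRNA levels of both factors overlapped between the groups. Their proteins were not measured, and their part in the lower Hmox1 was not tested. Hmox2, the constitutive heme oxygenase, gave 0.02 (SE 0.17, adjusted p = 0.969), and Blvra, the main adult biliverdin reductase, gave -0.36 (SE 0.20, adjusted p = 0.331) with groups that did not overlap.

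Ncoa4, the receptor that takes ferritin to the lysosome for autophagy, stood at 60.0, 63.8 and 54.6 CPM in mTOR-/- and 14.7, 69.8 and 78.6 CPM in WT libraries, with WT replicate 1 far below all others. Flvcr1, a heme exporter, was high in the same library, at 83.0 CPM against 30.0 and 27.1 in the other WT libraries, and stood at 88.0, 66.8 and 85.4 CPM in mTOR-/- libraries. Without WT replicate 1, edgeR called Flvcr1 higher in mTOR-/-. Hmox1 in WT replicate 1 was level with the other WT libraries. Alad, an early enzyme of heme synthesis, stood at 2.77, 4.55 and 2.83 CPM in mTOR-/- and 8.17, 8.33 and 6.91 CPM in WT libraries (log2 fold change -1.20, SE 0.30, adjusted p = 0.0588). DESeq2 called Alad, as did edgeR without a filter on low counts, with at least 10 counts in every sample, and without mTOR-/- replicate 2.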
